A study of Drosophila melanogaster with 12 samples.

Results

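The glutathione S-transferase genes of Drosophila melanogaster were followed class by class in whole males fed methylphenidate and in the sons of mothers exposed to it. The members are the genes with a probe set of their own whose current or older symbol names a Delta, Epsilon, Omega, Sigma, Theta or Zeta transferase, together with se, Mgstl and gfzf. They numbered 37 of the 11982 named genes on the array: 11 Delta, 13 Epsilon, 4 Omega (se included), 1 Sigma, 4 Theta and 2 Zeta genes, with Mgstl and gfzf standing apart. They were measured by 41 probe sets. GstE9, GstO2, Mgstl and gfzf had 2 each, and the one with the higher mean over all arrays was used. GstE8 was not analysed here.

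Glutathione S-transferases join the tripeptide glutathione to reactive or foreign compounds, which makes these more soluble and ready for export. Delta and Epsilon transferases are the arthropod classes best known from the metabolism of insecticides, and most of their genes lie side by side in the fly genome. Omega, Sigma, Theta and Zeta classes are shared with vertebrates and include enzymes of eye pigment synthesis and of amino acid breakdown. Many transferase genes are targets of the transcription factor Cnc, which Keap1 holds back.

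The 12 arrays each carried RNA of 8 whole males and fell into 4 groups of 3, all titled wt. Males had been exposed for 24 hours to methylphenidate or to sucrose. Methylphenidate is a stimulant drug whose main target is the dopamine transporter. F1 males were sons of mothers exposed to methylphenidate and fathers exposed to sucrose, or sons of parents that were both exposed to sucrose. The series' design text assigns all 6 F1 samples to drug-exposed mothers, whereas the sample labels name both crosses. The labels were followed, and every F1 value below rests on them. Neither the age of the flies nor the food of the F1 males is stated in these sources. Replicates are not said to be separate cultures, so the p-values reflect only how far these arrays differ, and with 3 arrays a group their precision is limited.

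Values are log2 signals as the authors processed them, and values near 0 lie at the floor of the scale. The median signal was between 1.37 and 1.57 on the 12 arrays, and Pearson correlations within groups were 0.9951 to 0.9975. The label of whole males was checked against tissue genes. The mean log2 signal of 6 accessory gland genes lay between 8.74 and 9.57 over all arrays, and that of 7 testis genes between 4.85 and 5.39. Single testis genes were lower: aly stayed under 0.5 on all arrays, and can lay between 0.91 and 1.82. Of 5 genes of female tissues, the yolk protein gene Yp1 stayed between -0.02 and 0.08, and Yp2 and Vm26Aa reached 0.63 and 0.53. Cp15 reached 1.15, and Yp3 lay between 1.59 and 3.62, so this list was low but not at 0 throughout. For GAPDH, a control of RNA integrity, the 3′ probe set exceeded the 5′ one by 1.504 ± 0.003 on the log2 scale in methylphenidate-fed males and by 1.62 ± 0.086 in sucrose-fed males (n = 3 each, SD). An exact two-sided permutation test gave p = 0.1, the smallest that this design allows. In whole-fly RNA, fewer cells of a type and less RNA per cell cannot be told apart.

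The first comparison asked what feeding methylphenidate did to the transferases of the exposed males. Delta and Epsilon genes made up 15 of the 17 members that rose. Of all 37 members 17 rose, none fell and 20 did not pass the threshold, a Benjamini-Hochberg adjusted p under 0.05 in limma over 18769 probe sets. Over all probe sets 2.38% rose and 0.97% fell (447 and 182, and 479 and 347 after quantile normalization). The members' median log2 change was 0.35, against -0.02 for all probe sets tested. Without overlap between the groups 21 members were higher and 1 was lower, against 9.28% and 12.0% of all probe sets. By class, 9 of 11 Delta, 6 of 13 Epsilon and 1 of 4 Omega genes rose, as did Mgstl, and no Sigma, Theta or Zeta gene passed. The median log2 change was 1.07 for the Delta and 0.35 for the Epsilon genes, and 0.20 for the 13 other members. The difference between classes was not tested.

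GstD2, a Delta transferase, changed most. Its log2 signal was 6.50, 7.94 and 7.43 in methylphenidate-fed males, against 1.33, 1.44 and 0.92 in sucrose-fed males. All 3 drug arrays stood far above the highest sucrose array, a fitted difference of 66.7-fold (log2 change 6.06 ± 0.31 SE, limma adjusted p = 4.9e-08). The sucrose-fed signals of GstD2, GstD8 and GstD10 lay under the median of every array of their group. Whether they exceed background was not tested, and fitted folds against them, here and in the third comparison, may be lower bounds. The sons lay between these levels, at 2.16, 2.01 and 2.98 with a drug-exposed mother and at 2.37, 2.81 and 2.17 with sucrose-exposed parents.

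GstD7, another Delta gene, had log2 signals of 3.75, 5.39 and 4.52 in methylphenidate-fed males, against 1.75, 1.70 and 1.83 in sucrose-fed males. The sucrose arrays were close to each other, and the drug arrays were spread over a wide range above them (6.93-fold, log2 change 2.79 ± 0.27 SE, limma adjusted p = 1.6e-05). GstD5 had 4.13, 5.06 and 5.33 in methylphenidate-fed males, against 2.97, 2.99 and 2.35 in sucrose-fed males. The groups did not overlap for GstD5 either, and it rose 4.19-fold (limma adjusted p = 0.000144). GstD10 had 2.59, 3.39 and 3.28 in methylphenidate-fed males, against 1.03, 1.41 and 1.05 in sucrose-fed males, a 3.78-fold rise (limma adjusted p = 6.2e-06).

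GstD1, the Delta enzyme known for breaking down DDT, was already bright without the drug. Its log2 signal was 9.66, 10.10 and 10.07 in methylphenidate-fed males, against 8.57, 8.65 and 8.62 in sucrose-fed males. It rose 2.51-fold with no overlap between the groups (log2 change 1.33 ± 0.10 SE, limma adjusted p = 2.0e-06). GstD9 had 6.50, 7.05 and 6.75 in methylphenidate-fed males, against 5.79, 5.63 and 5.68 in sucrose-fed males, a 2.09-fold rise (limma adjusted p = 3.5e-05). The remaining Delta increases were smaller. GstD8 rose by a fitted 1.83-fold (limma adjusted p = 0.0214) and GstD3 1.35-fold (limma adjusted p = 0.0344). GstD4 rose by 0.34 on the log2 scale but lay at the floor, with 0.44, 0.46 and 0.54 in methylphenidate-fed males and 0.15, 0.16 and 0.11 in sucrose-fed males. The calls of GstD3 and GstD4 were lost under 8 of 22 and 10 of 21 alternatives. GstD6 and GstD11 did not pass, with log2 changes of 0.14 and -0.05, and GstD6 stayed under 0.5 on all 12 arrays.

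**Figure D1:**
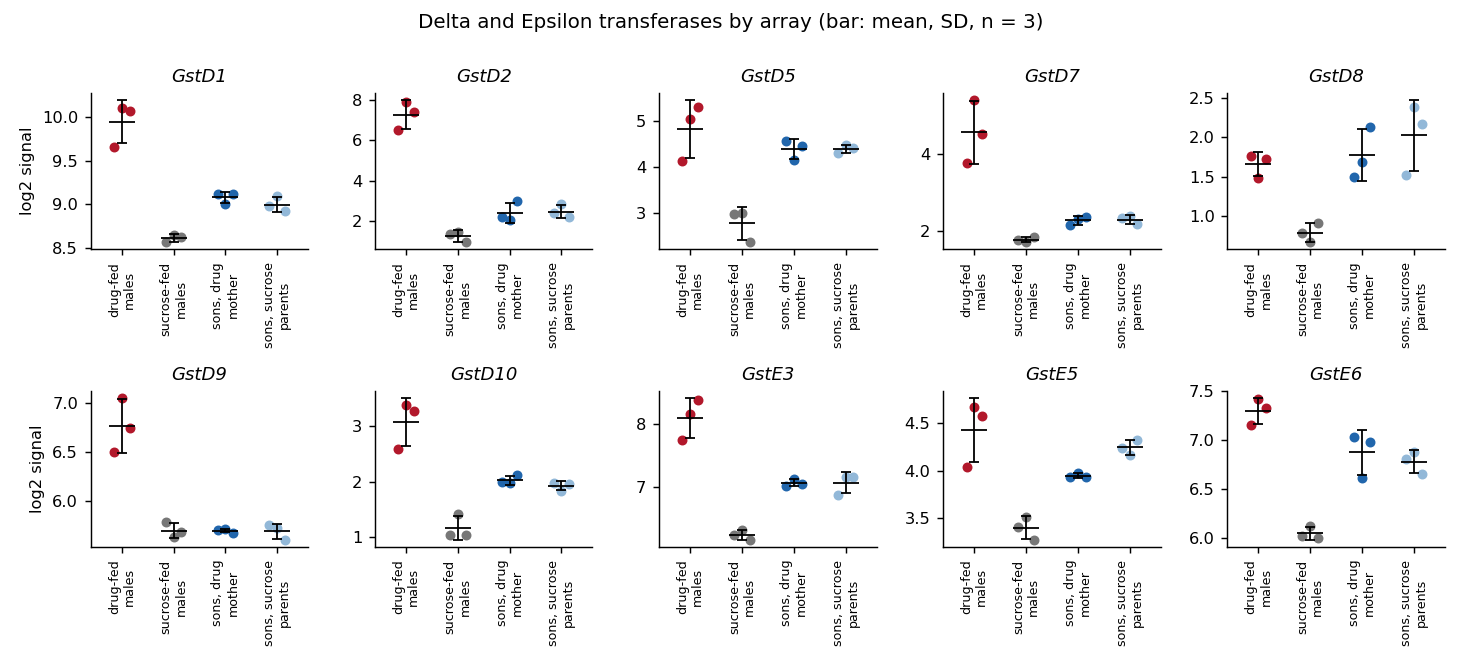
Log2 signal (vertical axes, a separate range for each gene) on the 12 arrays for the 10 members that passed the threshold with a log2 change of at least 1 in size in exposed males, in the sucrose groups or in the difference of effects. Points are arrays, and black bars are the mean and SD (n = 3). Drug-fed males lie above sucrose-fed males for all 10 genes, whereas for GstD8 the sons of both crosses reach or exceed the drug-fed males.

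Among the Epsilon genes GstE3 had the smallest p. Its log2 signal was 7.75, 8.16 and 8.39 in methylphenidate-fed males, against 6.23, 6.31 and 6.15 in sucrose-fed males. Every drug array exceeded every sucrose array by more than the spread within either group (3.65-fold, log2 change 1.87 ± 0.13 SE, limma adjusted p = 7.2e-07). GstE6 had 7.15, 7.42 and 7.32 in methylphenidate-fed males, against 6.02, 6.12 and 6.001 in sucrose-fed males, and rose 2.37-fold (limma adjusted p = 7.5e-06). GstE5 had 4.04, 4.67 and 4.57 in methylphenidate-fed males, against 3.41, 3.51 and 3.27 in sucrose-fed males. It rose 2.04-fold (limma adjusted p = 0.000237).

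GstE1 (1.91-fold), GstE7 (1.75-fold) and GstE9 (1.62-fold) also rose, with limma adjusted p of 0.00154, 0.0176 and 1.6e-05. The other 7 Epsilon genes did not pass. GstE10 was the member with the lowest change, at -0.48 on the log2 scale: it had 2.91, 2.63 and 2.89 in methylphenidate-fed males, against 3.30, 3.40 and 3.18 in sucrose-fed males (limma adjusted p = 0.0681). Those values do not overlap. GstE10 passed as lower under 8 of 22 alternatives, quantile normalization among them. GstE14, the transferase of the steroid hormone glands also called Nobo, differed by -0.13, and GstE2, GstE4, GstE11, GstE12 and GstE13 by -0.04 to 0.35.

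Outside these classes GstO2 and Mgstl passed. GstO2, an Omega gene, had 6.19, 5.98 and 5.96 in methylphenidate-fed males, against 5.63, 5.56 and 5.71 in sucrose-fed males, and rose 1.33-fold (limma adjusted p = 0.00897). Its dimmer probe set gave 0.74 in place of 0.41 on the log2 scale. GstO3 differed by 0.73 ± 0.22 (SE, limma adjusted p = 0.1), with overlapping groups, and by 1.04 (limma adjusted p = 0.00395) without replicate 1 of the methylphenidate-fed males. GstO1 and se, the sepia gene of red eye pigment synthesis, differed by 0.09 and -0.16.

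GstS1, the Sigma transferase that is abundant in flight muscle, had 7.73, 7.69 and 7.79 in methylphenidate-fed males, against 7.92, 7.76 and 7.81 in sucrose-fed males (log2 change -0.09, limma adjusted p = 0.705). These ranges overlap. Of the Theta genes GstT1 had the smallest p, with 4.84, 4.85 and 4.85 in methylphenidate-fed males, against 4.57, 4.57 and 4.65 in sucrose-fed males. The groups were apart, but the log2 change of 0.25 did not pass (limma adjusted p = 0.15). GstT2, GstT3 and GstT4 differed by 0.04 to 0.20.

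GstZ1 and GstZ2, of the class that isomerises maleylacetoacetate in tyrosine breakdown, differed by 0.26 and 0.36 and did not pass. GstZ2 had 3.41, 3.10 and 3.18 in methylphenidate-fed males, against 2.83, 2.94 and 2.85 in sucrose-fed males (limma adjusted p = 0.105). Mgstl, a microsomal transferase of a separate protein family, had 7.80, 7.80 and 7.65 in methylphenidate-fed males, against 7.33, 7.55 and 7.25 in sucrose-fed males (1.29-fold, limma adjusted p = 0.0383). That call was lost under 11 of 23 alternatives, and its dimmer probe set gave a log2 change of 0.05. For gfzf, a zinc-finger protein with a transferase domain, the log2 signal was 4.58, 4.53 and 4.43 in methylphenidate-fed males, against 4.68, 4.53 and 4.40 in sucrose-fed males, and the groups overlapped.

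With the GAPDH difference as a covariate, 10 of the 17 members passed: GstD1, GstD2, GstD5, GstD7, GstD9, GstD10, GstE3, GstE5, GstE6 and GstE9. The same 10 passed under every alternative run. The 7 others did not pass, but their log2 changes with the covariate were close to those without it: 0.49 against 0.43 for GstD3, 0.37 against 0.34 for GstD4, 1.03 against 0.87 for GstD8, 0.97 against 0.94 for GstE1, 0.86 against 0.80 for GstE7, 0.34 against 0.41 for GstO2 and 0.47 against 0.37 for Mgstl.

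**Figure D2:**
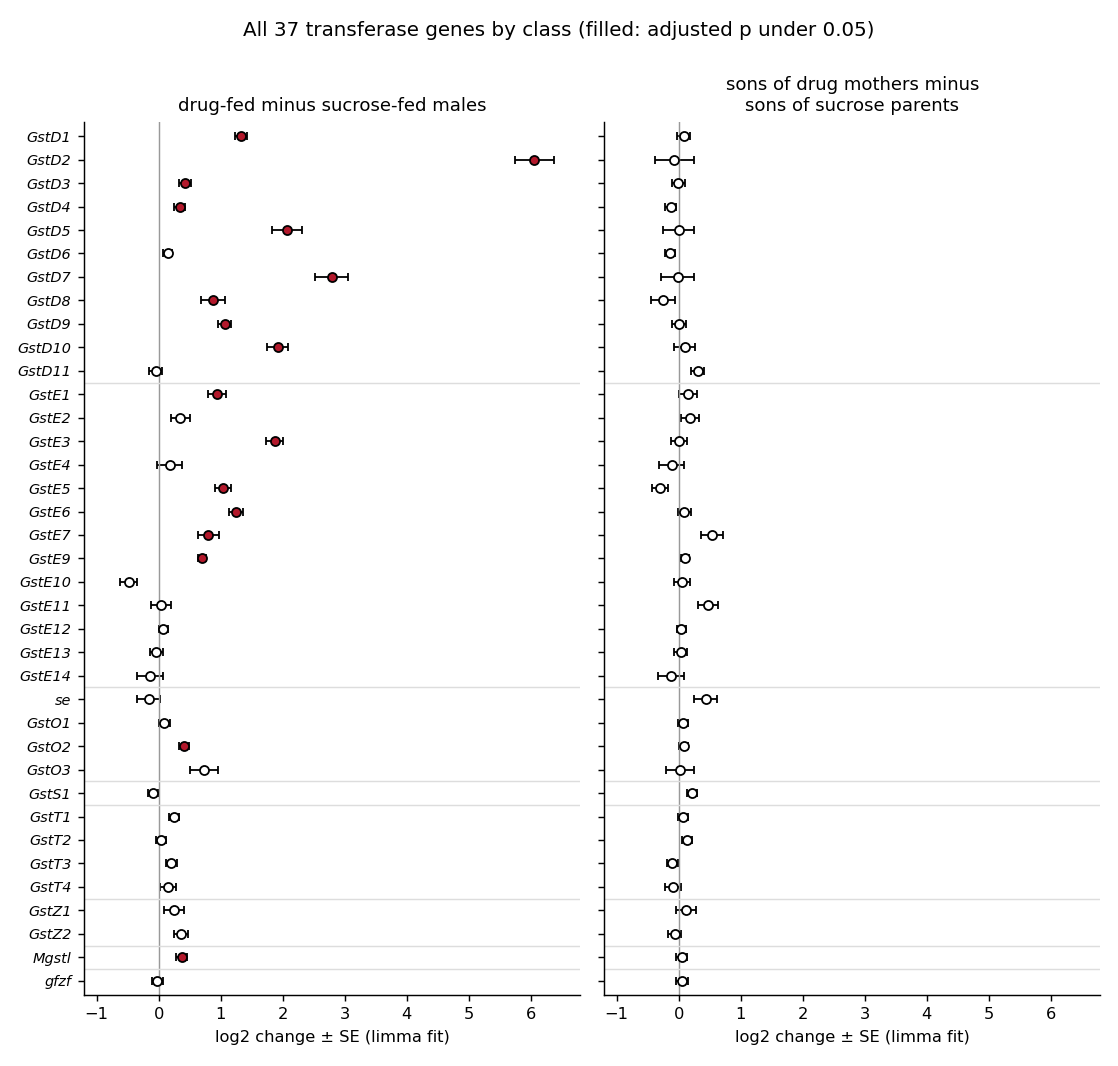
Log2 change with its SE (horizontal axes) for the 37 members, grouped by class from Delta at the top to gfzf at the bottom, with drug-fed minus sucrose-fed males on the left and sons of drug-exposed mothers minus sons of sucrose-exposed parents on the right. Filled points passed an adjusted p of 0.05: 17 members on the left and none on the right.

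The position of the genes was read from the RefSeq annotation of release 6, used for names and neighbours only. It places GstD10, GstD9, GstD1, GstD2, GstD3, GstD4, GstD5, GstD6, GstD7 and GstD8 next to each other in this order, with no other protein-coding gene between them. In that row of 10 neighbours 9 genes rose, against 2.38% of all probe sets, and GstD11, outside it, did not pass. The size of the change did not follow the order: GstD2 at 6.06 stood between GstD1 at 1.33 and GstD3 at 0.43, and GstD6 at 0.14 between GstD5 at 2.07 and GstD7 at 2.79 (log2 changes). A second row of 10 holds GstE10, GstE1 to GstE7, GstE8 and GstE9, and 6 of its 9 measured genes rose, against the same 2.38%. None of the 4 Epsilon genes elsewhere, GstE11 to GstE14, passed, and their log2 changes lay between -0.13 and 0.08. Neighbours in these rows are related copies, and signal shared between copies by cross-hybridization was not tested. All 24 Delta and Epsilon members were read by probe sets with the plain suffix of a single target.

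**Figure D3:**
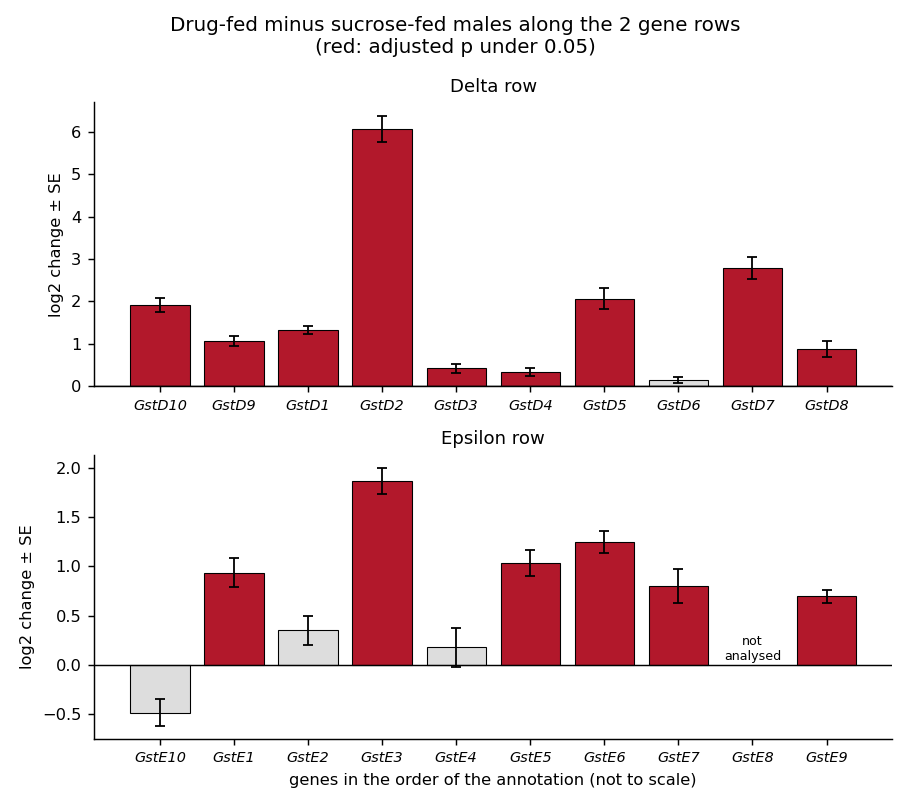
Log2 change with its SE (vertical axes, different ranges) in drug-fed minus sucrose-fed males for the genes of the Delta row (top) and the Epsilon row (bottom), in the order of the annotation and not to scale. Red bars passed an adjusted p of 0.05, and bars of neighbouring genes differ in height, as with GstD2 at 6.06 beside GstD3 at 0.43.

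The methylphenidate arrays differed among themselves in how far the Delta genes stood above the sucrose level. Replicate 1 of the methylphenidate-fed males was the lowest of the 3 for 10 of 11 Delta genes, for 5 of 13 Epsilon genes and for 3 of the 13 other members. It was the lowest for 36.7% of the 447 probe sets that rose and for 37.4% of all probe sets. Values of different genes on the same array are not independent of each other. Without replicate 1, 14 of the 17 members still passed, with GstD4, GstD8 and Mgstl lost and GstO3 gained.

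The genes that supply, use and export glutathione were set beside the transferases. This list and those of regulators and tyrosine breakdown below were chosen with earlier results of these data known. Their counts beside the share of all probe sets are therefore not an independent test. Of 14 genes measured in a list of 16, 6 rose and none fell, against 2.38% and 0.97% of all probe sets. Cth, the cystathionine gamma-lyase that makes cysteine, had 4.54, 4.84 and 4.79 in methylphenidate-fed males, against 3.61, 3.78 and 3.57 in sucrose-fed males. It rose 2.10-fold without overlap (limma adjusted p = 7.1e-06). MRP, whose human counterpart exports glutathione conjugates, had 7.01, 7.57 and 7.57 in methylphenidate-fed males, against 6.25, 6.34 and 6.26 in sucrose-fed males, a 2.14-fold rise (limma adjusted p = 0.000109).

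Cbs, the enzyme one step before Cth, rose 1.54-fold, the glutathione peroxidase homologue Gtpx 1.53-fold, the thioredoxin reductase Trxr1 1.40-fold, and Gclc, the catalytic subunit of the first step of glutathione synthesis, 1.35-fold. Their limma adjusted p were 0.00391, 0.000262, 0.00169 and 0.0148. The partner subunit Gclm differed by 0.31 on the log2 scale and did not pass (limma adjusted p = 0.135). Ggt-1, CG4829, CG1492, CG10365, Trxr2, Grx1 and Grx1t did not pass either.

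Of 4 regulators 2 rose, against 2.38% of all probe sets. Keap1 had 2.44, 3.58 and 3.13 in methylphenidate-fed males, against 1.54, 1.56 and 1.93 in sucrose-fed males (2.60-fold, limma adjusted p = 0.00143), and here too replicate 1 was the lowest of the drug arrays. The transcription factor gene cnc rose 1.21-fold (limma adjusted p = 0.0312), a call lost under 10 of 21 alternatives, among them leaving out any single array of the exposed or sucrose-fed males. Its partner gene maf-S and the nuclear receptor gene Hr96 did not pass. Beside the Zeta genes, 3 of 4 other genes of tyrosine breakdown rose, against the same 2.38%: Hpd 1.83-fold, hgo 1.82-fold and Tat 1.45-fold, with limma adjusted p of 8.0e-05, 0.00136 and 0.00148. Faa, the last enzyme of that path, differed by 0.16 on the log2 scale and did not pass. With the GAPDH covariate 4 of the 11 genes that rose in these lists passed, Cth, Gtpx, MRP and Hpd. The 7 that did not pass kept their direction, with log2 changes of 1.11 for Keap1, 0.74 for hgo, 0.53 for Cbs, 0.49 for Trxr1, 0.42 for Tat, 0.34 for Gclc and 0.26 for cnc.

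**Figure D4:**
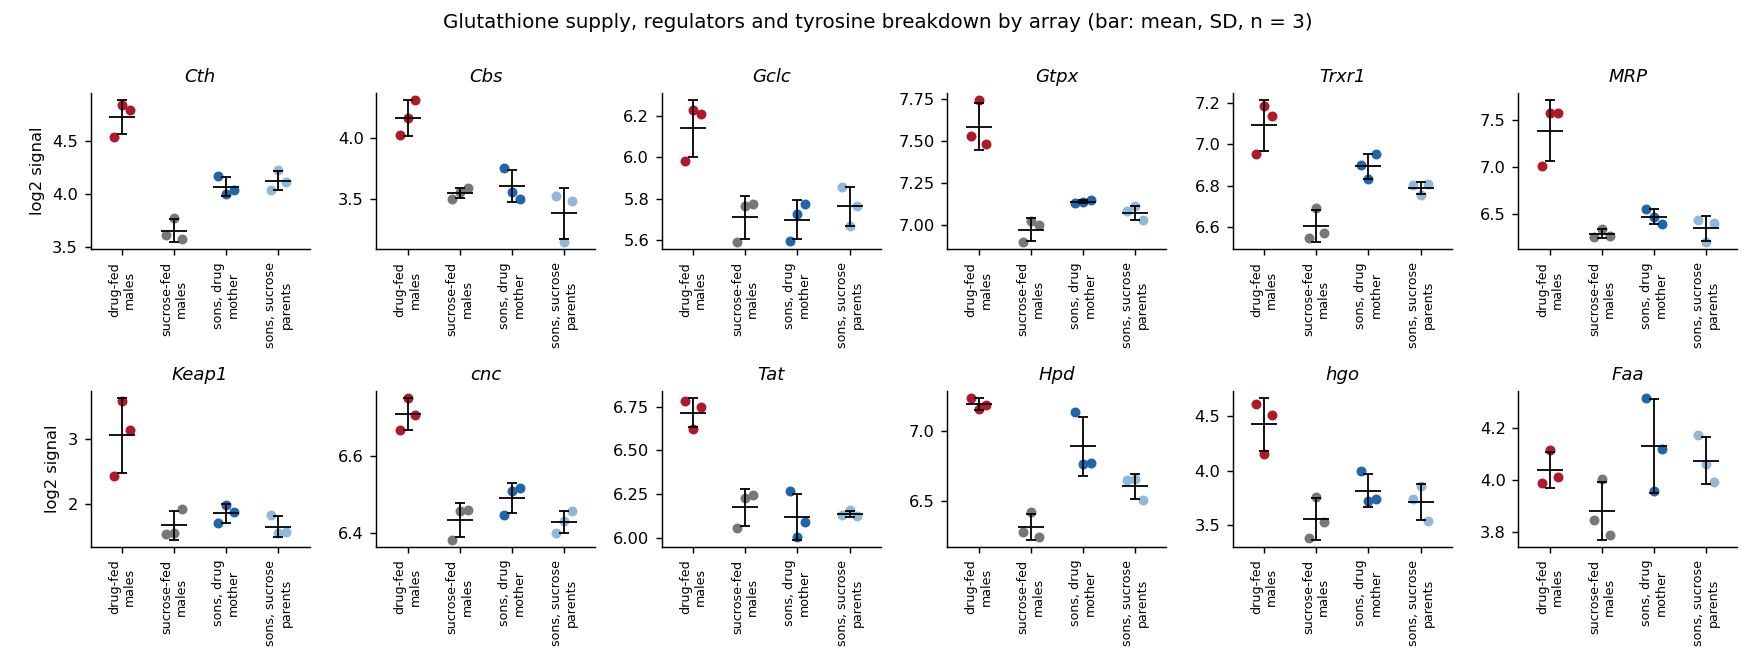
Log2 signal (vertical axes, a separate range for each gene) on the 12 arrays for 12 genes of glutathione supply, regulation and tyrosine breakdown. Points are arrays, and black bars are the mean and SD (n = 3). Drug-fed males lie above sucrose-fed males without overlap for every gene drawn except Faa, where the groups overlap.

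Some tissue genes also passed in this comparison, in which 2.38% of all probe sets rose and 0.97% fell. In methylphenidate-fed males 2 of 6 gut genes rose and 2 fell, and the mean log2 signal of the list ran from 6.06 to 6.61, against 6.39 to 6.75 in sucrose-fed males. Of 5 Malpighian tubule genes 1 rose and 1 fell, with list means of 3.84 to 3.87 against 3.87 to 3.96 in sucrose-fed males. Of 6 fat body genes 1 fell, and of 7 testis genes 1 fell. The log2 changes of all 7 testis genes were negative, from -0.35 to -0.11. Their list means ran from 5.06 to 5.21 in methylphenidate-fed males, against 5.29 to 5.39 in sucrose-fed males. None of the muscle, head and accessory gland genes passed, although the mean of the 5 muscle genes ran from 7.03 to 7.63 in methylphenidate-fed males, against 7.65 to 7.79 in sucrose-fed males. The part of tissue makeup in the transferase values was not tested.

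The second comparison asked whether sons of methylphenidate-exposed mothers differ from sons of sucrose-exposed parents. No member passed, higher or lower, in limma, and 6 of 37 had an unadjusted p under 0.05. Over all probe sets 0.00533% passed, and 8.06% had an unadjusted p under 0.05. The members' median log2 change was 0.05, against 0.03 for all probe sets, and the range was -0.30 to 0.54. Without overlap between the groups 4 members were higher and 2 were lower, against 7.56% and 3.94% of all probe sets.

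GstE7 had the smallest p of the members in the sons. Its log2 signal was 4.90, 4.70 and 5.11 with a drug-exposed mother, against 4.69, 3.99 and 4.41 with sucrose-exposed parents (log2 change 0.54 ± 0.17 SE, limma adjusted p = 0.497). These groups do not overlap, but the gap between them is smaller than the spread within either. GstE11 had 3.38, 2.80 and 3.30 in sons of drug-exposed mothers, against 2.85, 2.77 and 2.44 in sons of sucrose-exposed parents (limma adjusted p = 0.531). GstD11, near the floor, had 1.16, 1.08 and 0.77 in sons of drug-exposed mothers, against 0.54, 0.80 and 0.73 in sons of sucrose-exposed parents (limma adjusted p = 0.531). Both pairs of groups overlap. GstS1, se and GstE5 were the other members with an unadjusted p under 0.05, with log2 changes of 0.21, 0.43 and -0.30.

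None of the 17 members that had risen in exposed males passed in the sons. GstD2 differed by -0.07 in the sons with a 95% interval of -0.74 to 0.60, GstD7 by -0.01 with an interval of -0.59 to 0.56, and GstD1 by 0.08 with an interval of -0.14 to 0.31. The exposed-male change lay above the interval of the sons for 16 of the 17 members, and 0.5 times that change lay above it for 14. GstE7 was the exception in the first count, with an interval of 0.17 to 0.91 around 0.54 and an exposed-male change of 0.80. GstO2 and Mgstl joined it in the second. All these intervals use a spread pooled over the 4 groups, so the arrays of exposed males enter their width. For GstD7 the SD was 0.11 in each group of sons and 0.82 in methylphenidate-fed males. The 17 members were picked by their exposed-male change, and both counts leave out the error of that change. The counts are therefore not a test of the difference, which follows.

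The difference between these effects was tested directly in the same fit, as the effect in F1 males minus that in exposed males. It passed for 11 of 37 members, all lower in F1 males: 7 Delta genes (GstD1, GstD2, GstD5, GstD7, GstD8, GstD9 and GstD10) and 4 Epsilon genes (GstE3, GstE5, GstE6 and GstE9). Over all probe sets 1.42% were lower and 0.671% higher. The differences ran from -6.13 ± 0.44 (SE) for GstD2, with limma adjusted p = 2.7e-06, to -0.59 ± 0.09 for GstE9, with limma adjusted p = 0.00304. GstD8 passed narrowly, at -1.12 ± 0.27 (limma adjusted p = 0.0487), and did not pass under 11 of 21 alternatives. With the probe sets used, no member of the other classes passed. GstE1, GstE7, GstD3, GstD4, GstO2 and Mgstl rose in exposed males without a difference between the effects that passed. GstD4 (-0.47, limma adjusted p = 0.0627) and GstE1 (-0.79, limma adjusted p = 0.0733) came closest. They passed under 5 of 20 and 4 of 21 alternatives, and GstD3 under 1 of 21. GstE7 was furthest from passing (-0.265, limma adjusted p = 0.66). The choice of probe set mattered here: the dimmer one of GstO2 passed (-0.70, limma adjusted p = 0.0372). The dimmer one of GstE9 did not pass (-0.36, limma adjusted p = 0.299). Tissue genes also passed in this contrast: epsilonTry (1.27) and Mal-A4 (-1.41) of 6 gut genes, Alp4 (0.63) and Oatp58Dc (-0.57) of 5 Malpighian tubule genes, and Lsd-1 (1.24) of 6 fat body genes. Their part in the transferase differences was not tested.

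The third comparison set sons of sucrose-exposed parents against sucrose-fed males, groups that had no methylphenidate in either generation. Generation cannot be told apart here from any difference in diet, age or rearing. In the sons 14 of 37 members were higher and 1 was lower, whereas over all probe sets 6.33% were higher and 14.2% lower. That split of 1188 higher and 2666 lower probe sets was 1740 and 1779 with each array centred on its median, and the members were then 19 higher and 0 lower. The members' median log2 change was 0.22, against -0.03 for all probe sets. By class, 5 of 11 Delta, 6 of 13 Epsilon, 1 of 4 Theta and 1 of 2 Zeta genes were higher, as was Mgstl. GstO1 was lower, with a log2 change of -0.29 ± 0.09 (SE, limma adjusted p = 0.0241), a call lost under 7 of 22 alternatives, quantile normalization and median centring among them.

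GstD5 differed most. Its log2 signal was 4.30, 4.48 and 4.41 in sons of sucrose-exposed parents, against 2.97, 2.99 and 2.35 in sucrose-fed males, and it was 3.09-fold higher (limma adjusted p = 0.000878). The sons of drug-exposed mothers, with 4.57, 4.15 and 4.46, stood at the same height as the other sons. GstD8 had 1.52, 2.38 and 2.17 in sons of sucrose-exposed parents, against 0.78, 0.67 and 0.91 in sucrose-fed males (2.36-fold, limma adjusted p = 0.00098). Its mean log2 signal was 2.03 in these sons and 1.66 in methylphenidate-fed males, a difference that was not tested. GstD2 was 2.33-fold higher in the sons (limma adjusted p = 0.0125), and GstD10 and GstD1 were 1.70-fold and 1.30-fold higher. The calls of GstD2 and GstD1 were each lost under 3 of 22 alternatives.

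GstE5 had 4.24, 4.17 and 4.32 in sons of sucrose-exposed parents, against 3.41, 3.51 and 3.27 in sucrose-fed males (1.80-fold, limma adjusted p = 0.000912). The groups lay well apart. GstE3 (1.78-fold), GstE6 (1.66-fold), GstE10 (1.46-fold), GstE9 (1.34-fold) and GstE12 (1.17-fold) were higher as well, as were GstZ1 (1.41-fold), GstT3 (1.39-fold) and Mgstl (1.21-fold). GstE12, GstZ1 and Mgstl lost the call under 7 of 22, 9 of 22 and 11 of 23 alternatives. GstO2 did not pass, but its dimmer probe set did (log2 change 0.60, limma adjusted p = 0.00246). The dimmer probe set of GstE9 did not pass (log2 change 0.10, limma adjusted p = 0.629). GstD9, GstD3 and GstD7 did not pass, and GstD9 differed by -0.01 ± 0.11 (SE) although it had risen 2.09-fold with the drug. GstD7 was higher in the sons by 0.53 ± 0.27 (SE, limma adjusted p = 0.203), without overlap between the groups. It passed under 3 of 22 alternatives, among them the fit of only the compared arrays.

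GstE10 was higher in the sons and did not pass with the drug, whereas GstD9 rose with the drug and did not pass here. The exposed-male comparison, the sucrose-group comparison and the difference of effects all use the 3 sucrose-fed arrays. A level that was low on these arrays therefore enters each of them. Sucrose-fed males lay below all 9 other arrays for 12 of the 37 members, against 3.02% of all probe sets: GstD1, GstD2, GstD5, GstD7, GstD8, GstD10, GstE3, GstE5, GstE6, GstE9, GstO2 and Mgstl. All 12 had risen in exposed males. Among features that rose there, this held for 12 of 17 members, against 59.3% of the 447 probe sets. Methylphenidate-fed males lay above all 9 other arrays for 14 members, against 2.95% of all probe sets. Among features that rose, the counts were 12 of 17 members and 44.7% of the probe sets. Of the 17 members that rose, GstD5, GstD8, GstE5, GstE7 and Mgstl did not stand above all others, since sons reached the level of the lowest drug array.

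Tissue genes differed strongly in the third comparison. In sons of sucrose-exposed parents 5 of 6 gut genes, 4 of 6 fat body genes, 4 of 5 muscle genes and 4 of 6 accessory gland genes were higher, and 6 of 7 testis genes and 1 of 6 fat body genes were lower. Of 5 Malpighian tubule genes 1 was higher (Oatp58Dc), and of 4 head and neuron genes 1 was lower (trp). Over all probe sets 6.33% were higher and 14.2% lower. The mean log2 signal of the gut list ran from 7.69 to 7.84 in sons of sucrose-exposed parents, against 6.39 to 6.75 in sucrose-fed males. That of the testis list ran from 4.85 to 5.03 in sons of sucrose-exposed parents, against 5.29 to 5.39 in sucrose-fed males. That of the muscle list ran from 8.13 to 8.49, against 7.65 to 7.79 in sucrose-fed males. Yp3, the third yolk protein gene, was also higher in these sons (2.62-fold, limma adjusted p = 0.000182), with all 12 arrays between 1.59 and 3.62. The part of these tissues in the transferase values was not tested. Of the 14 genes of the glutathione list 2 were higher (Cth and Grx1) and 3 lower (CG10365, Trxr2 and Grx1t), beside those same shares of all probe sets. None of the 4 regulators or the 4 tyrosine genes passed.

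**Figure D5:**
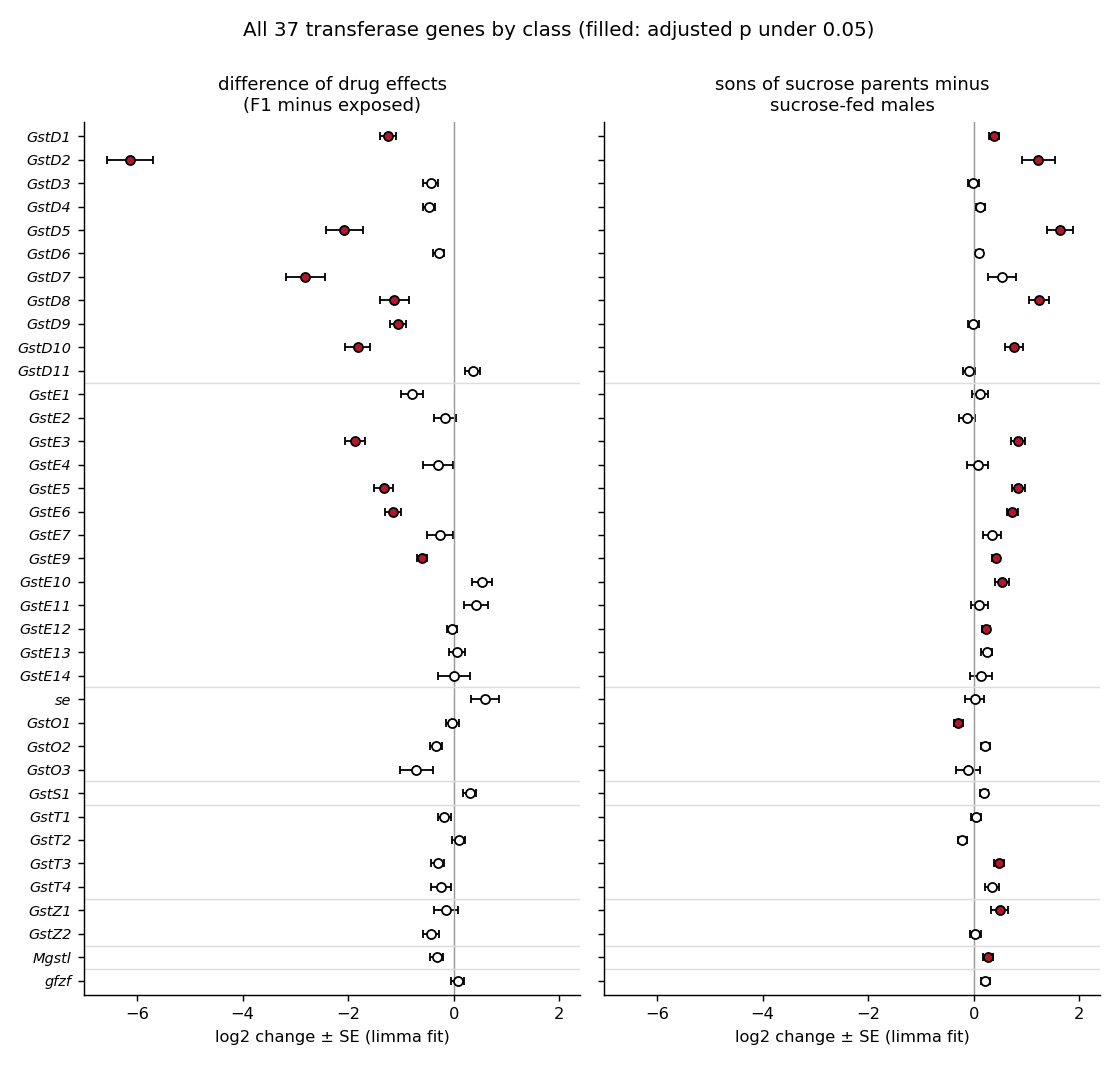
Log2 change with its SE (horizontal axes) for the 37 members by class, with the difference of drug effects (F1 minus exposed males) on the left and sons of sucrose-exposed parents minus sucrose-fed males on the right. Filled points passed an adjusted p of 0.05: 11 members on the left, all below 0, and 15 on the right, of which GstO1 alone lies below 0.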

How the data were processed

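Whole-male RNA was measured on 12 Affymetrix Drosophila Genome 2.0 arrays, 3 in each of 4 groups taken from the sample labels. The deposited table holds log2 signals that the authors made with RMA and the affy and limma packages, per the submitters' processing notes. The medians of the arrays differ (1.37 to 1.57), so the deposited values do not share one distribution, and signals near 0 have no room to fall. The log base was checked on the spike-in controls: the step from bioB to cre was 5.97, against a nominal 6.06 in log2. The 183 control probe sets were left out and 18769 were tested.

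Probe sets were named from the platform annotation, and 13544 symbols were updated through RefSeq. Of the probe sets 13647 had 1 gene, 402 several and 4720 none. A linear model of 4 group means was fitted to all 12 arrays (limma 3.58.1, default eBayes, under R 4.3.3). Tests were two-sided, and p-values were adjusted by Benjamini-Hochberg over all probe sets. No filter on dim probe sets was used. Values in each array are given for members with a log2 change of at least 1 past the threshold, for the smallest p of each class and for the 3 smallest p in F1 males. Members and lists were chosen with earlier results of these data known. The fit was tested on simulated data. Alternatives changed the arrays fitted, the scaling, the filter, the variance model, covariates, the replicate block and the choice of probe set.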

Additional observations from a re-analysis of the deposited data

Results flagged for a closer look

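The effect of methylphenidate differed between F1 and exposed males, by the test of the difference in limma, for 11 transferases and 5 genes of the accompanying lists. As the effect in F1 males minus that in exposed males, the log2 difference was -6.13 for GstD2, -2.81 for GstD7, -2.07 for GstD5, -1.82 for GstD10, -1.25 for GstD1, -1.12 for GstD8 and -1.06 for GstD9. Among Epsilon genes it was -1.87 for GstE3, -1.33 for GstE5, -1.15 for GstE6 and -0.59 for GstE9. Among the other genes it was -1.12 for Cth, -0.98 for MRP, -0.54 for Gtpx, -0.56 for Tat and -0.59 for Hpd. The calls of GstD8, GstE9, Gtpx, MRP, Tat and Hpd were lost under at least 1 alternative. The sucrose-fed arrays enter these differences too. For each of the 11 transferases except GstD9 they lay below all 9 other arrays, and the part of that low level was not tested. F1 males were exposed through a parent and exposed males through their own food, so generation and route of exposure cannot be told apart.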

How the results depend on the processing

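In exposed males 17 members passed. With the GAPDH 3′ minus 5′ difference as a covariate 10 passed, and the other alternatives that kept all 12 arrays or only the compared ones gave 15 to 19. Leaving out 1 array gave 13 to 18. In F1 males 0 members passed under every alternative run. For the difference of effects 11 passed, with 10 to 13 under the alternatives and 10 to 12 with 1 array left out. Between the sucrose groups 15 passed, with 10 to 19 under the alternatives. It was 10 with the GAPDH covariate, and also 10 when either sucrose-fed array 1 or 3, or array 2 among the sons of sucrose-exposed parents, was left out. No called value changed sign. Replicate numbers are shared between groups, but same-numbered arrays did not deviate together (correlations of deviations -0.174, -0.0308 and 0.0178 in exposed males and -0.0869, 0.128 and -0.0341 in F1 males), so the numbers were not taken as pairs. With the replicate block 15 members passed in exposed males, 0 in F1 males, 11 for the difference and 14 between the sucrose groups. Over all probe sets 629 passed in exposed males, 203 with the GAPDH covariate, 411 with only the compared arrays and 1009 with a trended, robust variance. The cause of these shifts was not tested. Signals near the floor, as for GstD4 and GstD6, limit what can be measured.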
